A study of Mus musculus with 10 samples.

Results

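The genes described here are, for the most part, nuclear genes for subunits and some assembly factors of the oxidative phosphorylation machinery, together with its electron carrier cytochrome c. They were chosen by symbol alone: every gene beginning with Ndufa, Ndufb, Ndufc, Ndufs, Ndufv, Cox4 to Cox8 or Atp5, and in addition Sdha, Sdhb, Sdhc, Sdhd, Cycs and Cyc1. The rule found 86 of the 26504 genes in the count tables. No measured value entered it, but it was set with earlier results of these data known.

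Oxidative phosphorylation takes place on the inner mitochondrial membrane. Complexes I and II pass electrons from NADH and succinate to ubiquinone, complex III hands them to cytochrome c and complex IV gives them to oxygen, and the ATP synthase, complex V, makes ATP from the proton gradient that complexes I, III and IV build up. Most subunits are encoded in the nucleus and a smaller number by the mitochondrial genome, so that each complex except complex II is assembled from products of both. Endothelial cells are known for making much of their ATP by glycolysis, and their mitochondria are also tied to proliferation and biosynthesis.

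The study asked how the endothelial cells of long bones differ between vessel types, with age and under drugs against osteoporosis. Endothelial cells were sorted from femurs and tibias of C57BL/6 mice of the genotype Cdh5-mTnG, a reporter whose nuclear GFP and membrane tdTomato are driven by the endothelial Cdh5 promoter and which all groups carried, after depletion of lineage-positive blood cells. The groups were juvenile mice of 3 weeks (males and females), adult females of 12 weeks, aged females of 75 weeks, and adult females of 12 weeks given parathyroid hormone (PTH 1-34, daily) or alendronate (every other day). Each group gave 2 libraries of the 10x Chromium 3′ kind from pooled animals in an experiment done once, so p-values below measure the spread between libraries and not between mice, and sex cannot be told apart from age in the juvenile group.

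Of 47466 cell barcodes, 46282 had 500 to 6000 detected genes and under 25% of their UMIs (unique molecular identifiers, counts of captured molecules) on the mitochondrial genome, and 45069 of these held at least 2 UMIs of Cdh5, Pecam1, Egfl7 and Kdr in sum. Libraries held 10653583 UMIs (PTH replicate 1) to 28419323 (PTH replicate 2), and 2163 to 7496 cells each passed the gate. The 4 gate genes, which mark endothelium, were each detected in 78.51% to 98.04% of a library's cells that passed the first 2 filters, before the gate. The gated cells were clustered anew into 28 clusters, most of which could be named by markers. This gave 17252 bmEC-like cells (sinusoidal vessels of the marrow; Stab2, Vcam1), 5035 mpEC-like cells (metaphyseal capillaries; Apln, Ramp3), 7481 aEC-like cells (arterial; Bmx, Gja4), 4228 rEC-like cells (capillaries at remodelling bone; C1qtnf9, Fmo2) and 550 pEC-like cells (proliferating; Mki67, Top2a). Another 8851 cells stayed unnamed, and small clusters were lymphatic-like (400 cells), haematopoietic-like (693), erythroid-like (417), mesenchymal-like (120) or mural-like (42). Of the fixed markers for mpEC-like cells, Apln, Piezo2, Ramp3, Lamb1 and Kcne3 were highest in these cells among the named vessel types. Esm1 was highest in aEC-like cells, with 56.57 UMIs per 1000000 against 36.43 in mpEC-like cells. Angpt2 was highest in rEC-like cells, with 46.59 against 26.42 in mpEC-like cells. Names rebuilt in this way may differ from those of the study.

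The aged libraries stood apart from the other 8 in several ways. They shared 1 to 3 cell barcodes with each of the other libraries, where those shared 8 to 74 with each other. Only their tables, as used here, held genes whose symbols begin with U, with 1.52% and 1.53% of their UMIs. All 276 such genes were left out, the subunits of complex III named Uqcr among them, so that complex III is represented here by Cyc1 alone. Ribosomal protein genes took 9.36% and 9.59% of the UMIs in the aged libraries against 16.6% and 16.4% in the adult ones. Age and whatever else set these libraries apart cannot be told apart.

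The 86 genes took about the same part of all UMIs in 4 of the 5 groups. Juvenile libraries had 2.22% and 2.22%, adult ones 2.31% and 2.29%, PTH ones 2.23% and 2.19% and alendronate ones 2.32% and 2.31%. In the aged libraries it was 1.29% and 1.31%, below all 8 others. By function, 36 subunits of complex I held 36.2% of the members' UMIs, 17 genes of complex IV, Ndufa4 among them, 31.0%, 17 genes of complex V, the pseudogene Atp5l-ps1 counted with them, 26.2%, the 4 genes of complex II 2.62%, 7 assembly factors of complex I (Ndufaf) 0.889%, Cyc1 0.744% and Cycs 0.537%. Cox7a2l, which helps join complexes III and IV into supercomplexes, held 1.64%, and Atp5s and Atp5sl, which were counted apart from these sets, 0.136%. The levels differed widely between genes, and because the kit captures 3′ ends they need no scaling by length. Cox4i1, the ubiquitous form of a core regulatory subunit of complex IV, was the highest at 1203 CPM (UMIs per 1000000), followed by Ndufa4 at 772, Cox6c at 760.0, Cox8a at 675 and Atp5j at 674.

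Promoters are shown for 4 members on which results below turn, since the members include genes that moved together and genes that moved apart. RefSeq gave the 250 bases before and 50 after the first listed start on GRCm38.p6 for 68 of the 86. Capitals mark matches, on either strand, to 4 motifs of factors known to bind promoters of respiratory genes: GCATGCGC (NRF1), CCGGAAG (ETS factors such as GABPA), AAGATGGC (YY1) and TCAAGGTCA (ERR alpha).
Cycs, chr6:50566520-50566819, minus strand: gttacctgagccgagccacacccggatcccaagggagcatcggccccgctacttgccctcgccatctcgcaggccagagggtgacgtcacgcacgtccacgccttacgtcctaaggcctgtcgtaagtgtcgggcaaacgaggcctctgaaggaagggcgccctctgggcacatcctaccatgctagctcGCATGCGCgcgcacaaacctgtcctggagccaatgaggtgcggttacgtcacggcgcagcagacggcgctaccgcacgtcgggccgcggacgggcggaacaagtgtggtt
Cox6a1, chr5:115348909-115349208, minus strand: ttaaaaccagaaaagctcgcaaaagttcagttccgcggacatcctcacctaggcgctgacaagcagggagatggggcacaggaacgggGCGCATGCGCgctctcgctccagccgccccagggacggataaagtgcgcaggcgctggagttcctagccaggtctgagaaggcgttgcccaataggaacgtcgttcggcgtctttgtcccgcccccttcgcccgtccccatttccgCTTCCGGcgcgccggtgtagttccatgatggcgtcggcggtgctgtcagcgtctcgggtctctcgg
Atp5g3, chr2:73911277-73911576, minus strand: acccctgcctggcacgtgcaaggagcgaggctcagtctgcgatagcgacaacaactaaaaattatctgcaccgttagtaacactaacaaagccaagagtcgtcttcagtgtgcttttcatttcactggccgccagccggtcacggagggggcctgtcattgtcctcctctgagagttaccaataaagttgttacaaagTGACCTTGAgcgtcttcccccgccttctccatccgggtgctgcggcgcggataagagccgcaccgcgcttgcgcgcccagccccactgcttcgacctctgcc
Cox5a, chr9:57520982-57521281, plus strand: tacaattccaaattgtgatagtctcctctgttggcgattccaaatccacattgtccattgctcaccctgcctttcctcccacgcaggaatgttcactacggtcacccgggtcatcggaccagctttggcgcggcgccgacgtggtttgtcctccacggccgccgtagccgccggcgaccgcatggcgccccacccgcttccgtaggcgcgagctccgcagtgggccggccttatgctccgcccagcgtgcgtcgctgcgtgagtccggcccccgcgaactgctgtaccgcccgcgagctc

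Cycs held 1 NRF1 match, Cox6a1 a pair of overlapping NRF1 matches and an ETS match, Atp5g3 an ERR alpha match, and Cox5a none of the 4 motifs in this window. Over the 68 promoters, 11 held the NRF1 motif (16.2%, against 4.26% of 13921 promoters of all genes), 14 the ETS motif (20.6% against 13.8%), 8 the YY1 motif (11.8% against 3.62%) and 2 the ERR alpha motif (2.94% against 0.273%). At least 1 of the motifs was found in 30 of the 68 (44.1% against 20.1%). A match is a string of letters and not a measured binding site.

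Summed levels of the members were close between vessel types and lower in every type in the aged libraries. In the adult libraries the share of UMIs was 2.30% and 2.27% in bmEC-like cells, 2.22% and 2.19% in mpEC-like cells, 2.17% and 2.12% in aEC-like cells, 2.22% and 2.18% in rEC-like cells and 2.40% and 2.50% in pEC-like cells. The proliferating cells were thus the highest of the 5, followed by bmEC-like cells. The mpEC-like and rEC-like values overlapped, and aEC-like cells had the lowest. In the aged libraries the same types had 1.25% and 1.24%, 1.31% and 1.37%, 1.34% and 1.33%, and 1.26% and 1.24%, with 1.51% and 1.53% in pEC-like sums of 16 and 8 cells. In the aged libraries aEC-like cells thus lay above bmEC-like cells. Among the other sets with at least 20 cells per library, the erythroid-like were the highest, with 3.11% to 3.36% in the 8 libraries that were not aged, and a cluster of unnamed cells of low depth (median 1201 UMIs) the lowest, with 1.83% over the same 8.

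**Figure D1:**
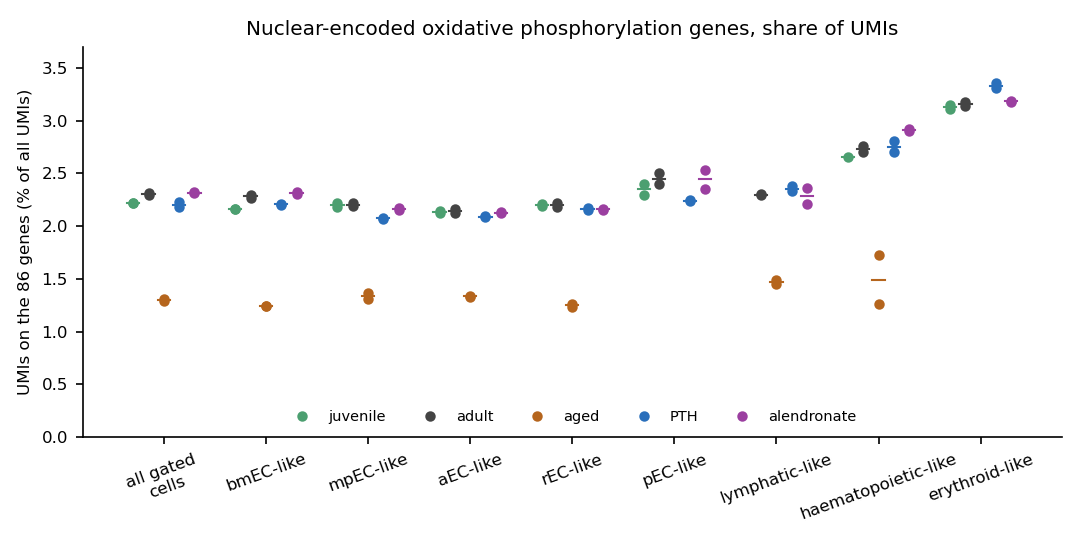
Share of all UMIs on the 86 genes (percent, vertical axis) in 9 sets of gated cells, with 1 point per library coloured by group and a short line at each group's mean; sums under 20 cells are left out. The aged points lie below those of all other groups in every set in which they are drawn, at 1.24% to 1.25% in bmEC-like cells against 2.27% and 2.30% in the adult libraries.

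Individual genes were compared between vessel types on sums of UMIs per type and library, with the library as a block, each type against the mean of the other 4. After a filter on low counts 78 of the 86 members were among 11436 genes tested. CPM of these tests are scaled by edgeR's TMM factors, and a gene is called at an adjusted p under 0.05. Many genes differ between such types, so the share of all genes called is given beside each type's count of members. Counts per complex and under other settings are given without it.

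bmEC-like cells, the marrow sinusoids, had 34 members higher (43.6%, against 34.3% of all genes) and 16 lower (20.5% against 34.1%), with a median log2 difference of 0.04 over the members and -0.00 over all genes. Scaled by plain totals the same test gave 19 higher and 36 lower, with medians of -0.07 and -0.11, so that the members lay slightly above the other genes under both scalings. With every cell thinned to 1000 UMIs the test gave 30 higher and 6 lower, and without a filter on low counts 35 and 9. Complex I had 19 of 36 subunits higher and 5 lower and complex IV 6 of 11 higher and 1 lower, whereas of the 7 assembly factors of complex I none was higher and 3 were lower. Not every gene of these complexes kept its direction in all libraries. Cox4i1 lay above the mean of the other types in 10 of 10 libraries, but Cox8a, Cox6b1 and Ndufa13 above it in 8 and below it in 2. Among members of at least 20 CPM the largest rise was that of Atp5g3, one of 3 genes for the c subunit that forms the rotating ring of the ATP synthase. Its level in bmEC-like sums ran from 220.1 CPM over a median of 449 to 513 (10 libraries), against a median of 184 in aEC-like and 175 in rEC-like sums. It was above the mean of the other types in 10 of 10 libraries (log2 difference 0.95, SE 0.045, adjusted p = 2.93e-23). Ndufc2, a small membrane subunit of complex I, reached a median of 844 CPM (log2 difference 0.76, SE 0.049, adjusted p = 1.22e-18), and Sdhc, a membrane anchor of complex II, a median of 145 CPM (0.56, SE 0.050, adjusted p = 1.6e-13), each above the other types in 10 of 10 libraries. Ndufb2 and Ndufs8, also of complex I, were higher by 0.41 and 0.38. On the other side stood Ndufaf7, a methyltransferase for complex I assembly, with a median of 17.1 CPM (-0.69, adjusted p = 5.13e-13), Sdhb, the iron-sulphur subunit of complex II, with a median of 148 CPM (-0.49, adjusted p = 4.51e-14), and Atp5b, the catalytic beta subunit of the ATP synthase, with a median of 503 CPM (-0.46, adjusted p = 2.17e-12). All 3 were below the other types in 10 of 10 libraries. The log2 difference of Atp5j and of Cox5a was -0.29 each. Of the members under 20 CPM, Atp5s stood furthest out, at 1.02 here, with -0.93 (aEC-like) and -0.43 (rEC-like) elsewhere. Sdhb and Sdhc, both of complex II, thus differed in opposite directions in these cells, and its catalytic subunit Sdha was not called in any of the 5 types.

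aEC-like cells, from arteries and arterioles, leaned the other way, with 11 members higher (14.1%, against 26.6% of all genes) and 28 lower (35.9% against 27.7%). Their median was -0.07, beside -0.01 over all genes. With every cell thinned to 1000 UMIs 7 members were higher and 12 lower, and without a filter on low counts 12 and 13. Complex I had 13 of 36 subunits lower and 3 higher, and complex IV 7 of 11 lower and 1 higher. Ndufa8, an accessory subunit of complex I, ran from 129 over a median of 300.4 to 329 CPM in aEC-like sums and was below the other types in 10 of 10 libraries (-0.53, SE 0.042, adjusted p = 3.69e-15). Atp5g3 and Ndufc2, the genes that led in bmEC-like cells, were lower here by -0.52 and -0.49, in 10 of 10 libraries each. Ndufs8 (-0.41) and Ndufaf2 (-0.35) followed, and Cox4i1 (-0.16), Cox8a (-0.27) and Ndufa4 (-0.21) were also lower. Among the 11 that were higher were Cox5a with a median of 103 CPM (0.28, SE 0.060, adjusted p = 0.000134), Ndufaf3 (0.27), Ndufv3 (0.23), Atp5j (0.22) and Atp5b (0.18), each in 10 of 10 libraries, and, under 20 CPM, the assembly factors Ndufaf6 (0.48) and Ndufaf5 (0.31).

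mpEC-like cells, the capillaries of the metaphysis, had 8 members higher (10.3%, against 21.4% of all genes) and 16 lower (20.5% against 20.2%), with medians of -0.04 and -0.01. Plain totals gave 13 and 14, DESeq2 6 and 26, thinned cells 1 and 11, no filter on low counts 4 and 13, and leaving out aged replicate 1 or aged replicate 2 gave 26 lower in each case. The rises were small and mostly in complex I: Ndufa8 (0.21, adjusted p = 2.36e-05), Ndufs4 (0.19) and Ndufa9 (0.19), with the assembly factor Ndufaf4 (0.17). The larger differences were falls, led by Cox7a2, the broadly expressed form of a complex IV subunit, at a median of 459 CPM (-0.31, SE 0.049, adjusted p = 1.07e-06). Ndufa6 (-0.30), Ndufv3 (-0.29), Atp5j (-0.27) and Ndufa7 (-0.26) were lower too, each in 10 of 10 libraries.

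rEC-like cells, the capillaries at sites of bone remodelling, were mixed: 17 members were higher (21.8%, against 23.4% of all genes) and 14 lower (17.9% against 25.6%), with medians of -0.03 and -0.02. Plain totals turned this to 14 higher and 26 lower, thinned cells gave 12 and 4, and no filter on low counts 13 and 9. Ndufa6, an accessory subunit of complex I, ran from 240 over 452 to 521 CPM and was above the other types in 10 of 10 libraries (0.48, SE 0.046, adjusted p = 2.09e-12). Atp5j, a subunit of the stalk of the ATP synthase, had a median of 897 CPM (0.35, adjusted p = 5.34e-07) and Ndufa8 one of 490.1 CPM (0.30, adjusted p = 7.41e-08), again in 10 of 10 libraries each, followed by Cox6c (0.27) and Ndufs5 (0.26). Atp5g3 was at its lowest here (-0.62, SE 0.057, adjusted p = 6.19e-13; below in 10 of 10 libraries), and Sdhc (-0.35), Ndufs4 (-0.33), Ndufc2 (-0.30) and Atp5f1 (-0.26) were lower as well. Of complex V, 1 of 15 genes was higher and 5 were lower, while 3 of the 7 assembly factors of complex I were higher and none lower.

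pEC-like cells, in cycle by their markers, gave sums of at least 20 cells in 8 libraries, none of them aged. They had 27 members higher (34.6%, against 18.9% of all genes) and 7 lower (8.97% against 16.9%), with medians of 0.06 and -0.04. Complex V had 8 of 15 genes higher and none lower, complex I 10 of 36 higher and 4 lower. Cycs, which carries electrons from complex III to complex IV, ran from 112 over a median of 158 to 222 CPM in these libraries. Its medians in the other 4 types were 92.3 to 126 CPM, but over 10 libraries, the aged ones included. Within libraries Cycs was above the mean of those types in 8 of 8 (0.51, SE 0.076, adjusted p = 3.05e-07). Ndufa5 (0.40) and Cox7a2 (0.39, median 679 CPM) were higher in 8 of 8 libraries too. The assembly factor Ndufaf2 was higher by 0.47, in 7 of 8 libraries, and Ndufaf7 by 0.41, in 5 of 8. Ndufa6 was lower in 8 of 8 (-0.54, adjusted p = 1.41e-10), as was Cox7a2l (-0.4, adjusted p = 8.86e-06), followed by Ndufb4 (-0.39), Ndufa7 (-0.34) and Ndufaf3 (-0.31). The count depended on the settings. With every cell thinned to 1000 UMIs 1 member was higher and 3 were lower (median -0.04), without the 5% of cells with most UMIs in each library 7 and 12 (-0.05), and without a filter on low counts 7 and 11 (-0.04). These cells had a median of 5623 UMIs, the highest of the types, and the part of depth in the count was not tested. Without juvenile replicate 2 the count was 16 higher, as it was with mitochondrial, ribosomal protein and haemoglobin genes left out of the totals.

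**Figure D2:**
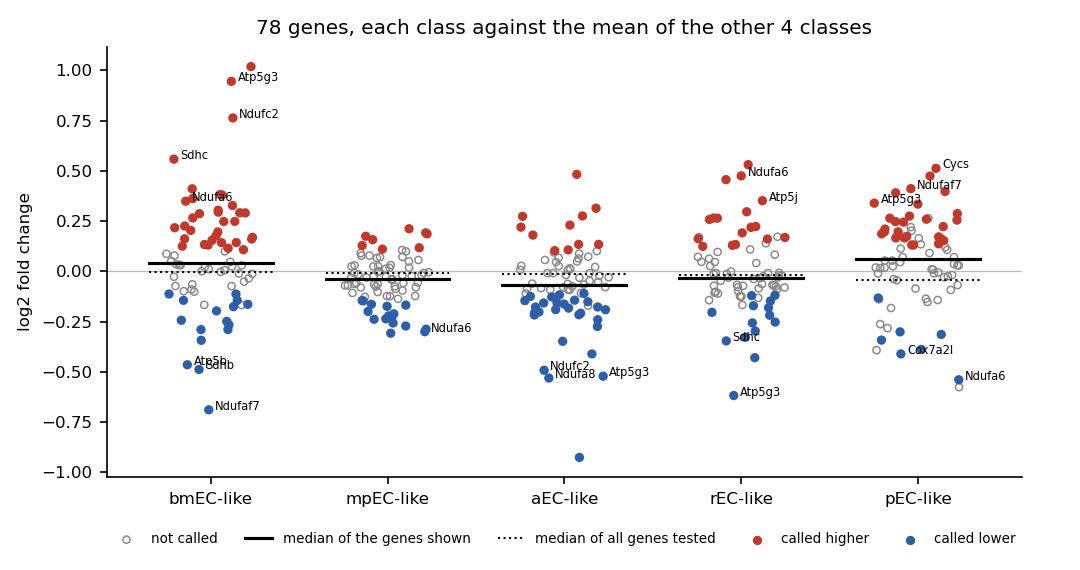
Log2 difference of each of 78 genes (points) between a vessel type and the mean of the other 4, by type; red points were called higher, blue lower, open points not called, the solid line is the median of the members and the dotted line that of all genes tested. Atp5g3 lies at 0.95 in bmEC-like cells and at -0.62 in rEC-like cells, and Cycs at 0.51 in pEC-like cells.

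The other genes of mitochondria did not all go with the members. Of all genes 34.3% were higher and 34.1% lower in bmEC-like cells, and 26.6% and 27.7% in aEC-like cells. In bmEC-like cells 8 of 8 tested genes of the mitochondrial genome were higher (median 0.46) and in aEC-like cells 7 of 8 were lower (-0.32). The cytosolic ribosomal proteins went the same way in both, with 143 of 168 higher in bmEC-like and 127 of 168 lower in aEC-like cells. Enzymes of the citrate cycle went apart from the members in bmEC-like cells, where 1 of 13 was higher and 8 were lower (median -0.22), as did genes of cristae and coupling, with 0 of 12 higher and 8 lower. In pEC-like cells, where 18.9% of all genes were higher and 16.9% lower, 4 of 13 citrate cycle enzymes (Idh3a by 0.98) and 22 of 75 mitochondrial ribosomal proteins were higher and none of either list was lower. In rEC-like cells, where 23.4% of all genes were higher and 25.6% lower, 9 of 15 tested glycolytic genes were higher and 3 lower, with a median of 0.29.

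Some complex IV genes exist as tissue-specific pairs, and their second forms were rare in endothelium. Cox4i2, the form of Cox4i1 known from lung and smooth muscle, had 250 UMIs in all gated cells, of which 75 lay in the 42 mural-like cells (305 CPM, against 0.184 CPM in bmEC-like cells). Ndufa4l2, the relative of Ndufa4 known from hypoxic cells and pericytes, had 249 of its 336 UMIs in the same 42 cells. Cox6b2, known from testis, had 1380 of 2503 UMIs in erythroid-like cells. Cox6a2, the heart and muscle form, had 301 of 423 UMIs in 1 unnamed cluster of 68 cells led by Lyz2, Lsp1, Tyrobp and Ctss, genes of myeloid cells, and 12 in all bmEC-like cells. Cox7a1, also a muscle form, was highest in the mesenchymal-like cells at 66.2 CPM, and Cox8b had 55 UMIs in all.

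Age and treatment were compared with the adult group on sums over all gated cells of a library. All 86 members were among 16086 genes tested. All 4 comparisons share the same 2 adult libraries. In such sums fewer cells of a type and less RNA per cell cannot be told apart, and the makeup did change: bmEC-like cells made up 45.8% and 46.6% of the gated cells of adult libraries, against 20.8% and 19.9% of aged ones, and rEC-like cells 6.03% and 5.73% against 16.86% and 17.15%. In the other groups bmEC-like cells made up 52.6% and 51.7% (juvenile), 32.2% and 27.5% (PTH) and 36.8% and 35.95% (alendronate). The mpEC-like share was 9.57% and 9.44% in the adult and 20.2% and 16.5% in the PTH libraries, and rEC-like cells made up 15.99% and 16.5% of the alendronate ones.

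In the aged libraries nearly the whole machinery was lower. Of 86 members 83 were lower, against 36.5% of all genes, and 2 were higher, against 36.2%. The median log2 difference was -1.13 where that of all genes was 0.00. With plain totals 78 were lower and the medians were -0.77 and 0.36, so the distance between members and all genes was much the same. All 36 subunits of complex I (median -1.16), all 4 of complex II (-1.15), all 17 genes counted under complex V (-1.10) and all 7 assembly factors of complex I (-0.80) were lower, and 14 of 17 genes of complex IV (-1.18). The exceptions in complex IV were Cox7a1, which was not called, and Cox6a2 and Cox8b, which were higher.

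Cox5a, a subunit on the matrix side of complex IV, had 144 and 163 CPM in adult sums, against 34.5 and 34.8 in aged sums (log2 difference -2.15, SE 0.097, adjusted p = 2.19e-10). Atp5l, the g subunit of the ATP synthase, had 62.2 and 63.1 CPM against 12.9 and 13.7 (-2.24, SE 0.13, adjusted p = 3.63e-09). The groups stayed far apart for both. Ndufb6, a membrane subunit of complex I, fell from 119 and 120.3 CPM to 35.5 and 33.4 (-1.80, adjusted p = 5.09e-12). Cox6a1, the widely expressed form of its subunit, fell from 783 and 783 to 237 and 239 CPM (-1.72, adjusted p = 1.72e-13), and Ndufs5 from 88.9 and 91.2 to 27.1 and 27.4 (-1.73, adjusted p = 7.94e-10). The 2 libraries of each group lay close together, and no adult value overlapped an aged one.

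The abundant members were lower as well. Cox4i1 fell from 1352 and 1356 CPM to 514 and 517 CPM (-1.39, adjusted p = 1.23e-12). Ndufa4 (-1.38), Cox8a (-1.10), Cox7a2 (-1.01), Cox7a2l (-1.57) and Atp5b (-1.10) were lower too, as were the carriers Cycs, from 146 and 143 to 44.7 and 45.5 CPM (-1.68), and Cyc1 (-1.29). The smallest of the falls among the genes described throughout was that of Sdha, the flavoprotein of complex II, from 185 and 184 to 125 and 120.2 CPM (-0.59, SE 0.039, adjusted p = 9.48e-09), while Sdhb (-1.29), Sdhc (-1.20) and Sdhd (-1.10) moved further. Atp5a1, the alpha subunit of the ATP synthase, fell by 0.83. Among the rare forms Cox4i2 (-2.89) and Ndufa4l2 (-3.29) were lower. The mural-like cells, which held much of their UMIs, numbered 8 and 13 in the adult libraries and 0 in both aged ones, and their part in these differences was not tested. Cox6a2 rose from 3.14 and 4.61 to 5.97 and 5.77 CPM (0.61, adjusted p = 0.0272) and Cox8b from 0 and 0.325 to 1.28 and 0.911 CPM (2.75, adjusted p = 0.0025).

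Other values moved with age in the same libraries. Of the 9 tested genes of the mitochondrial genome 8 were higher and 1 was lower (median 1.19; mt-Co1 by 1.86), the opposite direction to the nuclear genes of the same complexes. Most other nuclear genes for mitochondrial proteins were lower: 73 of 78 mitochondrial ribosomal proteins (median -1.11), 14 of 16 genes of import and the outer membrane (-1.04), 11 of 13 citrate cycle enzymes (-0.68; Mdh2 by -1.04), 11 of 14 genes of fatty acid oxidation (-0.66; Etfb by -1.46) and 10 of 12 of cristae and coupling (-0.99; Slc25a5, an ADP/ATP carrier, by -1.72). Of 227 cytosolic ribosomal protein genes and copies 155 were lower (-0.93), and 10 of 17 glycolytic genes (-0.34; Eno1 by -0.96), with 3 higher, among them the glucose transporter Slc2a1 (1.25). Of 12 regulators of mitochondrial biogenesis 4 were higher and 4 lower, shares near the 36.2% and 36.5% of all genes (Yy1 1.21, Tfam -0.52). Summed lists of blood cell markers also differed: the haematopoietic list had 660 and 884 CPM in the adult and 9850 and 4766 in the aged libraries, and the erythroid list 2219 and 2169 against 1454 and 7059. The haematopoietic list holds Cd74, which was also a leading gene of an unnamed cluster of 3553 cells, and its part in the sum was not tested. Haematopoietic-like cells made up 1.67% and 2.29% of the gated cells of adult and 1.61% and 1.34% of those of aged libraries. Leaving out all clusters named haematopoietic, erythroid, mural or mesenchymal gave 83 members lower and 2 higher again. Unnamed and lymphatic-like cells stayed in, among them a cluster of 68 cells led by Lyz2 and a cluster of 78 led by Vpreb3. With an equal number of 54 bmEC-like, mpEC-like, aEC-like and rEC-like cells each per library 71 were lower and none was higher (median -0.91).

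The length of the transcript moved with the aged difference as well. The median longest transcript of the members was 944.5 bases (82 matched in the annotation), against 3098 over 12473 tested genes. Genes that are no members had a median aged difference of -1.02 where the transcript was under 1000 bases (665 genes), -0.67 from 1000 to under 2000 bases (2491 genes) and 0.16 at 2000 bases or more (9235 genes). The members had -1.17 (44 genes), -1.13 (26) and -0.88 (12) in the same bins. Among short genes of at least 100 CPM the medians were -1.14 for 31 members and -1.19 for 201 others, so the short members had much the same median as other short, abundant genes, and the 12 long members lay further from other long genes. The part of length in the aged difference was not tested.

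**Figure D3:**
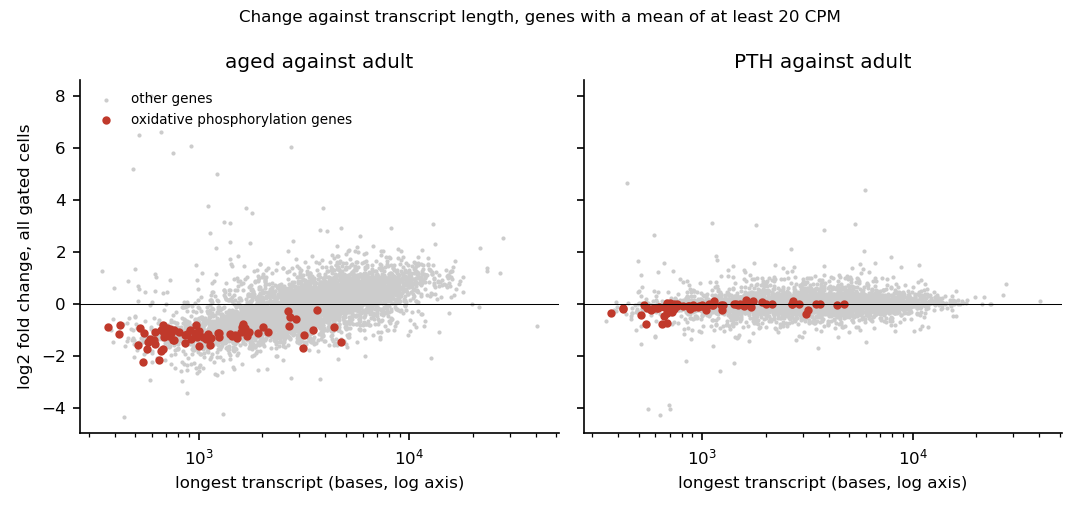
Log2 difference of the aged and of the PTH libraries against the adult ones (vertical axes) by longest annotated transcript (bases, log axis), for genes of at least 20 CPM; members in colour, other genes in grey. In the aged panel short genes lie lower than long ones, members and other genes alike.

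PTH changed fewer members, most of them downward. Of 86 members 29 were lower, against 12.6% of all genes, and 2 higher, against 13.4%, with a median of -0.08 beside 0.00. Plain totals gave 23 lower and 5 higher. Complex IV had 9 of 17 genes lower and 1 higher, complex I 11 of 36 lower and 1 higher and complex V 6 of 17 lower and none higher. Cox5a fell from 144 and 163 CPM to 93.1 and 89.2 (-0.76, SE 0.089, adjusted p = 3.19e-05), Atp5l from 62.2 and 63.1 to 33.5 and 39.3 (-0.76, adjusted p = 0.000278) and Ndufs5 from 88.9 and 91.2 to 52.4 and 56.7 (-0.71, adjusted p = 2.7e-05). Ndufb6 (88.2 and 85.5 CPM; -0.47) and Ndufa3 (302 and 334 CPM; -0.41) came next. Cycs fell from 146 and 143 to 111 and 110.5 CPM (-0.38, adjusted p = 2.15e-05), and Sdhc (-0.25), Cox6a1 (-0.19), Ndufa4 (-0.17), Cox8a (-0.15) and Cox7a2 (-0.13) were lower by less. Cox6b2, the form found mostly in erythroid-like cells, rose (0.48). Cox4i1 had 1361 and 1289 CPM beside 1352 and 1356 and was not called, nor were Sdha, Sdhb, Sdhd, Atp5a1, Atp5b and Cyc1. Cox6a2, most of it in the cluster led by Lyz2, fell to 0.0965 and 0.254 CPM (-4.16), and the haematopoietic list was at 468 and 323 CPM in these libraries. Of the other lists, 1 of 13 citrate cycle enzymes was lower and none higher, 5 of 78 mitochondrial ribosomal proteins were lower and 2 higher, and 2 of 12 genes of cristae and coupling were lower and 2 higher. With 54 cells of each vessel type except pEC-like per library 2 members were lower and none higher.

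Alendronate had no common direction. Of 86 members 11 were higher, against 12.2% of all genes, and 10 lower, against 10.5%, so the shares were near those of all genes, with medians of 0.01 and -0.00. DESeq2 called 14 higher and 8 lower. Complex V had 5 of 17 genes higher and 1 lower, and complex I 5 of 36 in each direction. Ndufb3 rose from 201 and 202 to 235 and 232 CPM (0.21, SE 0.040, adjusted p = 0.00199), Atp5h from 604 and 608 to 713 and 686 (0.21, adjusted p = 0.00256), and Atp5e (0.18), Atp5g1 (0.18), Ndufs6 (0.17) and Cox7a2 (0.12) rose by less. The falls were led by Cox5a, to 98.4 and 119 CPM (-0.50, SE 0.087, adjusted p = 0.00114), and Ndufs5, to 61.0 and 70.7 CPM (-0.45, adjusted p = 0.00128), followed by Atp5l (-0.37), Ndufb6 (-0.27) and Cox7a2l (-0.25, 318 and 346 CPM). Without adult replicate 1, adult replicate 2, alendronate replicate 1 or alendronate replicate 2 the members higher numbered 3, 3, 2 and 3. With 54 cells of each vessel type except pEC-like 0 were higher and 1 was lower. In the mitochondrial genome 6 of 9 genes were higher and none lower (median 0.18), and 11 of 14 stress genes of the kind induced by cell isolation were higher and none lower.

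Juvenile cells differed from adult ones in both directions, with more members lower. Of 86 members 28 were lower, against 20.7% of all genes, and 12 higher, against 20.6%, with medians of -0.07 and -0.01. Plain totals gave 38 and 7. Ndufc2 had 981 and 1026 CPM in the juvenile and 683 and 688 in the adult libraries (0.55, SE 0.038, adjusted p = 1.2e-07), and Cox7a2l 521 and 500.0 against 388 and 401 (0.37, adjusted p = 3.32e-05). Both were again lowest in the aged libraries, at 278 and 294 and at 137 and 129 CPM. Ndufb4 (0.24), Ndufb2 (0.23), Cox7c (0.22) and Cox4i1 (0.09) were also higher. Cox5a was lower, at 95.9 and 82.4 CPM (-0.78, SE 0.089, adjusted p = 1.23e-05), as were Ndufaf3 (-0.43), Ndufs5 (-0.43), Ndufb6 (-0.40) and Atp5l (-0.35). Complex II had 3 of 4 genes lower, with Sdha at 148 and 152 CPM (-0.30), and Cycs (-0.22), Cox6a1 (-0.22) and Ndufa4 (-0.31) were lower too. Stress genes were lower in 11 of 14 cases and higher in none, and 136 of 227 cytosolic ribosomal protein genes were higher with 8 lower. With 54 cells of each vessel type except pEC-like per library 3 members were lower and 2 higher. Without adult replicate 2 or juvenile replicate 2 the members lower numbered 18 and 17.

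Cox5a, Ndufs5, Ndufb6 and Atp5l were highest in the adult libraries and lower in all 4 other groups, which were each set against those same 2 libraries. Reads of some members cannot be told from those of near-identical copies. In the last 300 bases of its transcripts Atp5l shared 72.1% of its 32-base windows with 19 other genes, 18 of them pseudogenes, and Ndufs5 shared 54.2%, Cox5a 12.6% and Ndufb6 0%. In 6 of 82 members at least 50% of the windows were shared (7.32%, against 3.36% of all genes with a transcript). The PTH difference had a median of -0.48 over these 6 and of -0.07 over the 57 members with under 10% shared. How the study counted such reads is not given in the sources used here, so the levels of Atp5l, Atp5h, Cox7c, Ndufs3, Atp5g2 and Ndufs5 are uncertain.

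**Figure D4:**
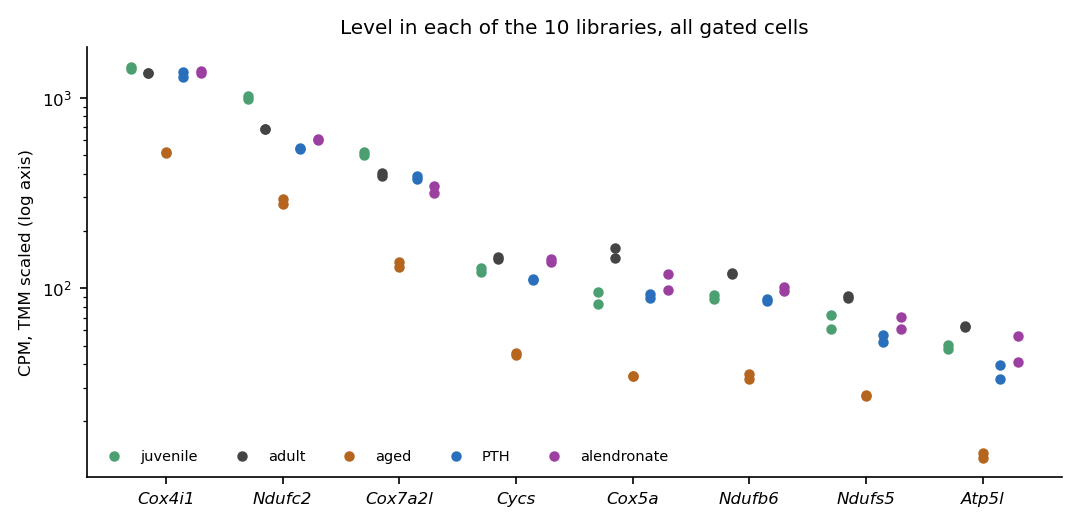
TMM-scaled CPM (log axis) of 8 genes in the 10 libraries, 1 point per library coloured by group. Cox5a, Ndufb6, Ndufs5 and Atp5l are highest in the 2 adult libraries, Ndufc2 and Cox7a2l in the juvenile ones, and all 8 are lowest in the aged.

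**Figure D5:**
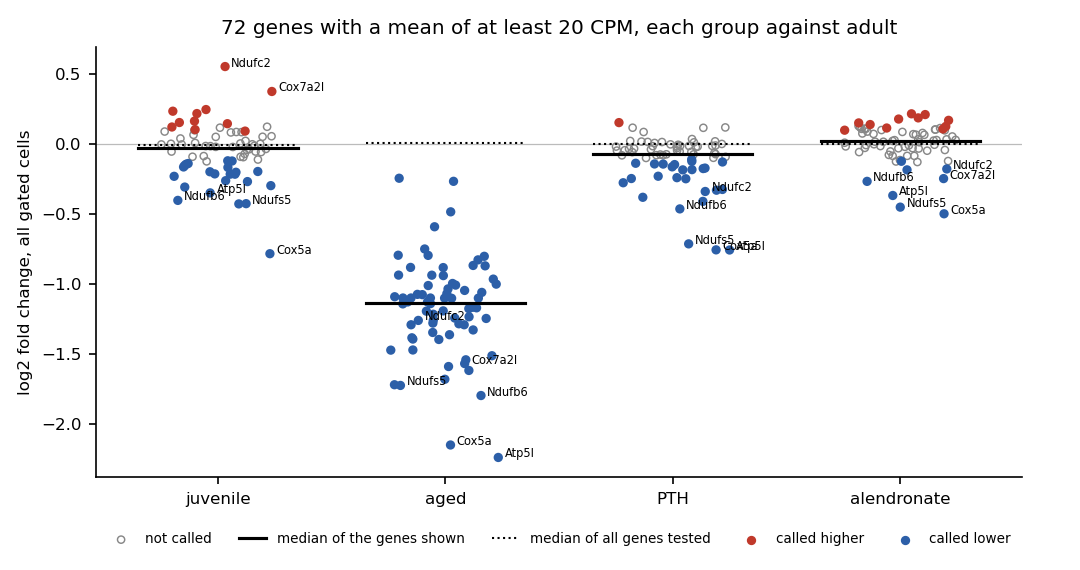
Log2 difference from the adult libraries of the 72 genes with a mean of at least 20 CPM, by group; red points were called higher, blue lower, open points not called, the solid line is the median of the genes shown and the dotted line that of all genes tested. The aged points lie below 0, while those of the other 3 groups lie around it, with Cox5a at -0.78, -0.76 and -0.50 in the juvenile, PTH and alendronate groups.

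The aged difference was found within each vessel type that could be tested. In bmEC-like cells 78 of 83 tested members were lower (against 32.7% of all genes) and 1 higher (32.6%), with a median of -1.21. In mpEC-like cells 72 of 78 were lower (27.0%) and none higher (26.5%), with a median of -0.83, in aEC-like cells 74 of 78 (29.8%) and none (29.3%), with -0.72, and in rEC-like cells 67 of 77 (24.0%) and none (24.0%), with -0.87. In these 4 types the counts of lower members under the alternatives that keep all libraries were 69 to 80, 57 to 75, 66 to 75 and 62 to 67. Cox5a fell by 2.55, 1.99, 1.77 and 1.69 in the 4 types in that order, and Atp5l by 2.27, 2.20, 1.75 and 1.94. Ndufs5 was among the leading 3 in bmEC-like (-2.03), mpEC-like (-1.61) and rEC-like cells (-1.60), and Ndufb6 in aEC-like cells (-1.48). The clusters behind a type were not always the same: 83.5% of the aged bmEC-like cells lay in cluster 14, with 0.92% of the adult ones, and 74.9% of the aged mpEC-like cells in cluster 11, where 69.4% of the adult ones lay in cluster 5. Within cluster 14 the members took 1.26% of the UMIs of aged and 2.38% of those of adult cells. In rEC-like cells 1 cluster, 7, held 74.1% of the adult and 74.5% of the aged cells, and there the shares were 2.21% and 1.26%. The 1 gene that was higher was Cox8b in bmEC-like cells (3.09). DESeq2 likewise called none higher in the other 3 types, in which edgeR gave 73, 74 and 67 members at an unadjusted p under 0.05 in either direction.

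Under PTH the leading falls in each type were those of Cox5a, Ndufs5 and Atp5l. In bmEC-like cells 18 of 83 members were lower (21.7%, against 4.22% of all genes) and none higher (against 5.58%). In mpEC-like cells 13 of 78 were lower (16.7% against 4.82%) and none higher (against 4.66%). In aEC-like cells 8 of 78 were lower (10.3% against 4.13%) and 1 higher (1.28% against 4.06%). In rEC-like cells 6 of 77 were lower (7.79% against 3.78%) and 1 higher (1.30% against 3.61%). Cox5a fell by 0.85, 0.81, 0.80 and 0.84 in these 4 types, Ndufs5 by 0.80, 0.72, 0.72 and 0.96 and Atp5l by 0.62, 0.61, 0.77 and 0.93. In rEC-like cells the rise was that of Ndufa7 (0.36). In bmEC-like and mpEC-like cells DESeq2 called none higher either, and edgeR gave 32 and 23 members at an unadjusted p under 0.05 in either direction. The counts depended on single libraries: they were 11 in bmEC-like cells without PTH replicate 2, 6 to 8 in mpEC-like cells without PTH replicate 1 or 2 or adult replicate 1 or 2, 4 and 3 in aEC-like cells without PTH replicate 1 and adult replicate 1, and 1 to 3 in rEC-like cells without either PTH, either adult or either alendronate library or aged replicate 1. Cluster 1 held 61.5% of the bmEC-like cells under PTH, where cluster 0 held 50.3% of the adult ones, and cluster 13 held 54.4% of the rEC-like cells under PTH.

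Alendronate gave 19 of 83 members higher (22.9%, against 9.84% of all genes) and 13 lower (15.7% against 7.98%) in bmEC-like cells. In mpEC-like cells 2 of 78 were higher (2.56% against 5.55%) and 3 lower (3.85% against 3.98%). In aEC-like cells 1 of 78 was higher (1.28% against 5.84%) and 6 were lower (7.69% against 4.49%). In rEC-like cells none of 77 was higher (against 1.43%) and 3 were lower (3.90% against 1.48%). Plain totals made it 15 and 17 in bmEC-like and 1 and 5 in mpEC-like cells. Cox5a fell by 0.57, 0.62, 0.53 and 0.56 in the 4 types. Ndufs5 fell by 0.49, 0.67, 0.49 and 0.53, and Ndufb6 by 0.51 in rEC-like cells, while Atp5h (0.29) and Atp5d (0.24) rose in mpEC-like and Atp5e (0.23) in aEC-like cells. In rEC-like cells DESeq2 called none in either direction, and edgeR gave 10 members at an unadjusted p under 0.05. Under this drug cluster 1 held 55.7% of the bmEC-like cells. Without alendronate replicate 1 or adult replicate 2 the count of higher members in bmEC-like cells was 7 and 8, that of lower members in aEC-like cells was 2 without alendronate replicate 1 and 3 without adult replicate 1, in rEC-like cells it was 0 without adult replicate 1, adult replicate 2 or alendronate replicate 1 and 1 without alendronate replicate 2, and in mpEC-like cells it was 5 without aged replicate 1.

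In juvenile bmEC-like cells 37 of 83 members were lower (44.6%, against 18.7% of all genes) and 7 higher (8.43% against 18.3%). In mpEC-like cells 11 of 78 were lower (14.1% against 9.7%) and 7 higher (8.97% against 9.74%). In aEC-like cells 10 of 78 were lower (12.8% against 9.51%) and 5 higher (6.41% against 9.24%). In rEC-like cells, which were 1.38% and 1.39% of the juvenile cells, none of 77 members was lower (against 1.7% of all genes) and 1 was higher (1.30% against 1.49%). edgeR gave 12 members there at an unadjusted p under 0.05 and DESeq2 0 lower and 2 higher. That 1 gene was Ndufc2, with 970 and 774 CPM in the juvenile and 420 and 431 in the adult rEC-like sums (1.03), and it was higher in aEC-like (0.83) and mpEC-like cells (0.42) too. Cox5a fell by 0.76 in bmEC-like, 0.80 in mpEC-like and 0.60 in aEC-like cells. Without juvenile replicate 1 or 2 the lower members numbered 6 and 5 in aEC-like cells and 5 and 6 in mpEC-like cells, where they were 3 and 7 without adult replicate 1 and 2. The single higher count in rEC-like cells was 2 without PTH replicate 2 or adult replicate 1.

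Whether the change itself differed between rEC-like and bmEC-like cells was tested as an interaction over 12400 genes, 81 of them members. With age 20 members had a less negative or more positive change in rEC-like cells (against 5.7% of all genes) and 1 the reverse (3.84%), with a median of 0.23 beside 0.03. They included 9 of 36 subunits of complex I, 4 of 13 of complex IV, 6 of 16 of complex V and Cycs. In the CPM of this test Cox8a fell from 814 and 765 to 349.9 and 346 in bmEC-like and from 580.3 and 555 to 372 and 391.6 in rEC-like sums (difference of the changes 0.61, SE 0.096, adjusted p = 4.73e-08). Ndufa7 went from 421 and 399 to 190.5 and 209 CPM and from 356 and 282 to 250.5 and 252 CPM (0.69, SE 0.11, adjusted p = 1.75e-07). The exception was Sdha, which went from 176 and 182 to 166 and 163 CPM in bmEC-like and from 201 and 174 to 123 and 127 CPM in rEC-like sums (-0.46, SE 0.14, adjusted p = 0.0172). This result hung on the settings: plain totals gave 5 and 3, with medians of 0.05 and -0.15, DESeq2 3 and 0, and without adult replicate 1, aged replicate 1 or aged replicate 2 the 20 became 11, 8 and 12. Thinned cells, stricter cells and other clusterings were not run for the interaction. The median depth was 2393 UMIs in rEC-like and 3839 in bmEC-like cells. Cluster 14 held 83.5% of the aged and 0.92% of the adult bmEC-like cells. The part of depth and of clusters in this result was not tested. Under PTH 3 members, Atp5e, Cox8a and Ndufa8, had a higher change in rEC-like cells (against 1.63% of all genes) and none a lower one (against 2.62%). There were 9 at an unadjusted p under 0.05 and 0 by DESeq2, and 1, 0 and 1 without PTH replicate 2, adult replicate 1 and adult replicate 2. In juvenile cells a higher change held for Ndufc2 alone (against 1.03% of all genes), with none the other way (against 1.12%), and for no member without juvenile replicate 1. There 8 members had an unadjusted p under 0.05, and DESeq2 gave 1 higher and 0 lower. For alendronate edgeR called none in either direction (0.621% and 0.597% of all genes), with 1 member at an unadjusted p under 0.05, and DESeq2 called none.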

How the data were processed

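The authors made the deposited counts, UMIs per gene and cell barcode without normalization in 1 table for each of 10 libraries, with UMI-tools 1.1.2, STAR 2.7.10a on mm10 and Subread featureCounts 2.0.3, as the submitters' processing notes and the methods name them. The annotation release, the strand setting, the treatment of reads with several matches and the rule that chose the barcodes are not given in the sources used here. Groups and replicate numbers came from the labels. Total UMIs ran from 10653583 to 28419323 per library, and the median per gated cell was 3571 (3116 in adult replicate 2 to 5016.5 in aged replicate 1).

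Cells with 500 to 6000 genes, under 25% of UMIs on mt- genes and at least 2 UMIs of the 4 gate genes were clustered with 2000 variable features scaled within libraries, 30 principal components, 20 neighbours and the Leiden method at a resolution of 1 (Python 3.11.15, numpy 2.4.6, scipy 1.17.1, igraph 0.11.9, leidenalg 0.10.2), and clusters were named by fixed markers. No doublet caller was run. Cells of over 6000 genes were removed, and 1021 barcodes occurring in more than 1 library were kept. UMIs were summed per library, or for each class of a library that held 20 cells or more, and tested by edgeR 4.0.16 in R 4.3.3 (quasi-likelihood, filterByExpr, TMM), with p-values adjusted over all genes tested by Benjamini and Hochberg. Classes were tested with the library as a block, and groups in 1 fit over all 5. The scripts were tested on simulated data with known changes. CPM of isoforms in cell types use plain totals. Replicates differed beyond counting noise (chi-square per degree of freedom 2.13 to 7.88), so none was counted as a duplicate.

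The members and lists were chosen with earlier results of these data known. Genes named are, for each comparison, the 5 largest rises and falls among called members of at least 20 CPM (3 within a class; for groups without overlap with the adult libraries), and a fixed set of isoforms, complex II subunits, Cycs, Cyc1, Atp5a1 and Atp5b. Atp5s, Ndufaf5, Ndufaf6, Cox6b2 and the genes behind counts of 5 or fewer within a class were named after their values were seen. Some results that these rules would name are not reported here. Alternatives were DESeq2 1.42.0 with its size factors, plain totals, no filter, stricter cells, cells thinned to 1000 UMIs (1761 cells left out), other clusterings, equal cells per class, totals without mt-, ribosomal protein and haemoglobin genes, the replicate number as a block and each library left out. Added after seeing the data were a floor at the lowest totals of PTH replicate 1, the removal of the 5% of cells with most UMIs in each library and a crossed block. Same-numbered libraries deviated with correlations of -0.116 to 0.0361 over 10 pairs of groups, so numbers do not pair libraries. Transcript lengths and shared 32-base windows were taken from GENCODE vM21, and promoters from RefSeq.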

Additional observations from a re-analysis of the deposited data

Results flagged for a closer look

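The change against the adult libraries differed between rEC-like and bmEC-like cells, by the interaction term of edgeR's quasi-likelihood test, in 25 cases. Values are the log2 change in rEC-like minus that in bmEC-like cells. With age it was 0.72 for Cox5a, 0.72 for Ndufb4, 0.69 for Ndufa7, 0.67 for Cycs, 0.61 for Cox8a, 0.54 for Ndufb8 and 0.50 for Ndufab1. It was 0.49 for Cox7a2, 0.48 for Atp5e, 0.48 for Atp5g3, 0.47 for Atp5g1, 0.47 for Atp5j2, 0.47 for Ndufa11 and 0.44 for Ndufb7. Smaller values were 0.39 for Atp5j, 0.38 for Ndufa6, 0.37 for Ndufa2, 0.35 for Atp5d, 0.33 for Ndufc2 and 0.32 for Cox6b1, and Sdha alone was negative at -0.46. Under PTH it was 0.40 for Atp5e, 0.31 for Ndufa8 and 0.30 for Cox8a, and in juvenile cells 0.61 for Ndufc2. All of these groups share the 2 adult libraries, and the aged counts moved with the settings as given above. DESeq2 called none of the PTH cases, and none was called without adult replicate 1. The juvenile case was not called without juvenile replicate 1.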

How the results depend on the processing

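Counts of members called are given as the reported count and then the alternative's; where one moved by over 1.5 times and no value shows why, the cause was not tested. The aged counts over all gated cells and within each class, and the higher count in bmEC-like cells except with plain totals, stayed within 1.5 times. DESeq2 gave 26 for 16 lower in mpEC-like cells. Within bmEC-like cells it gave 20 for 37 (juvenile), 11 for 18 (PTH) and 10 for 19 (alendronate, higher), within mpEC-like cells 2 for 11 (juvenile) and 4 for 13 (PTH), within aEC-like cells 4 for 10, 3 for 8 and 2 for 6 (juvenile, PTH, alendronate), within rEC-like cells 2 for 1 (juvenile, higher), 2 for 6 (PTH) and 0 for 3 (alendronate), and in the interaction 3 for 20 (aged) and 0 for 3 (PTH). Thinning to 1000 UMIs, with fewer UMIs, gave 12 for 28 lower in aEC-like and 1 for 27 higher in pEC-like cells, 3 for 11 higher under alendronate, 21 for 37, 11 for 18 and 4 for 19 within bmEC-like cells (juvenile, PTH, alendronate), 1 for 11, 3 for 13 and 1 for 3 within mpEC-like, 5 for 10, 2 for 8 and 2 for 6 within aEC-like, and 1 for 3 (alendronate) within rEC-like cells. Equal cells per class, with fewer cells and without pEC-like ones, gave 3 for 28 (juvenile, lower), 2 for 29 (PTH, lower) and 0 for 11 (alendronate, higher). Features not scaled gave 28 for 16 lower in mpEC-like cells, 7 for 13 (PTH, mpEC-like), 4 for 10 and 5 for 8 (juvenile and PTH, aEC-like), 2 for 1 and 0 for 3 (juvenile and alendronate, rEC-like), and no aged value in mpEC-like cells for want of cells. The floor of PTH replicate 1 gave 1 for 3 (alendronate, rEC-like). A clustering resolution of 0.5 gave 25 for 13 and 15 for 8 (PTH, mpEC-like and aEC-like), and one of 2 gave 26 for 16 (mpEC-like, lower) and 1 for 3 (alendronate, rEC-like). No filter on low counts gave 13 for 28 (aEC-like, lower), 7 for 27 (pEC-like, higher), 3 for 6 and 1 for 3 (PTH and alendronate, rEC-like). Plain totals gave 19 for 34 (bmEC-like, higher), 5 for 3 (alendronate, mpEC-like), 2 for 1 (juvenile, rEC-like), and 3 for 1, 5 for 20 and 1 for 3 in the interaction (juvenile, aged, PTH). The stricter cell filter gave 26 for 16 (mpEC-like, lower). In pEC-like cells, 16 for 27 were higher without mt-, ribosomal protein and haemoglobin genes and 7 for 27 without the cells with most UMIs.

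The summed level, 2.22%, 2.30%, 1.30%, 2.21% and 2.32% of UMIs in the juvenile, adult, aged, PTH and alendronate groups, became 2.80%, 2.80%, 1.49%, 2.66% and 2.86% with mt-, ribosomal protein and haemoglobin genes out of the total. It was 2.22%, 2.32%, 1.31% and 2.33% (juvenile, adult, aged, alendronate) under the stricter filter and 2.20%, 2.28%, 1.28% and 2.30% for subunits only.

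With 1 library left out the counts ran from 0 to 3 (PTH), 8 to 25 (aged) and 0 to 1 (juvenile) in the interaction, from 2 to 16 (alendronate, higher) and 17 to 29 (juvenile, lower) over all cells, and from 16 to 26 (mpEC-like, lower) and 16 to 27 (pEC-like, higher) between classes. Under PTH they ran from 11 to 19 (bmEC-like), 6 to 14 (mpEC-like), 3 to 8 (aEC-like) and 1 to 5 (rEC-like), under alendronate from 7 to 20, 2 to 5, 2 to 6 and 0 to 3, and in juvenile mpEC-like, aEC-like and rEC-like cells from 3 to 11, 5 to 12 and 1 to 2.

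Some single genes turned their sign: in pEC-like cells Atp5a1 (-0.036), Ndufa4 (-0.034) and Sdhb (-0.32) with thinned cells and Sdhb (-0.0455) without the cells with most UMIs, and with equal cells per class Ndufb2 in juvenile cells (-0.011) and Sdhc under PTH (0.15).

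With the replicate number as a block the counts were 36, 16, 30, 18 and 27 in the vessel types of marrow, metaphysis, artery, remodelling bone and proliferation, 25, 83, 28 and 8 (juvenile, aged, PTH, alendronate) and 1, 18, 2 and 0 in the interaction, none of them moved by over 1.5 times. With the numbers of the PTH libraries crossed in that block the counts over all cells were 28 (juvenile, lower), 83 (aged, lower), 28 (PTH, lower) and 8 (alendronate, higher).

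With thinned cells 30 members were higher and 6 lower in bmEC-like, 1 and 11 in mpEC-like, 7 and 12 in aEC-like, 12 and 4 in rEC-like and 1 and 3 in pEC-like cells, and rare forms such as Cox8b, with 55 UMIs in all, rest on few molecules.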

Other observations

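Cells outside the 5 vessel types also passed the gate. Lymphatic-like cells, led by Prox1 and Lyve1, had 2.30% and 2.30% of their UMIs on the 86 genes at 12 weeks and 1.45% and 1.49% at 75 weeks. Haematopoietic-like cells had 2.76% in adult replicate 1, 2.699% in adult replicate 2, and 1.26% and 1.72% in aged replicates 1 and 2, but different clusters held them. Of the adult cells 71.1% were in a cluster led by Elane and Mpo, which held 40.6% of the aged cells. Another 39.1% of the aged cells, 27 cells, were in a cluster led by S100a9 and S100a8, with 0.947% of their UMIs on the 86 genes. Within the Elane and Mpo cluster the pooled share was 2.80% in adult and 1.89% in aged cells. Erythroid-like sums in the aged libraries, of 9 and 14 cells, had 1.64% and 0.974%, against 3.11% or more in each of the others.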
